A study of Mus musculus with 10 samples.

Results

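Interleukin 10 (IL-10) transcripts and the machinery that answers the cytokine were followed in sorted antigen-presenting cells of the mouse colon and spleen. The axis was taken by gene name as 10 of the 22607 genes measured: the ligand Il10, the receptor chains Il10ra and Il10rb, the kinases Jak1 and Tyk2, the transcription factor Stat3, the feedback inhibitor Socs3, and the induced genes Bcl3, Etv3 and Nfkbid. Transcripts were matched to GENCODE M21 symbols and summed per gene. All 10 genes passed the filter on low counts in both model fits.

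The 10 libraries came from wild-type C57BL/6 mice, 8 weeks old, with no treatment or deletion named in the labels. They formed 5 groups of 2 libraries. Colonic mononuclear phagocytes and dendritic cells were sorted as CD11b+CD11c+, CD11b+ or CD11c+ cells, where CD11b and CD11c are integrins. Colonic MHCII+ and splenic MHCII+ cells were sorted on class II histocompatibility molecules, which display peptides to CD4+ T cells. Whether the paired libraries came from different mice, or from pools, is not stated in the labels. The p-values therefore rest on library-to-library spread, and that spread may be technical. RNA was bulk, and fewer cells of a type and less RNA per cell cannot be told apart.

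IL-10 is a cytokine that restrains inflammatory gene expression, above all in macrophages. It binds IL10RA, which is paired with IL10RB, a chain shared with the receptors for interleukin 22 and the lambda interferons. JAK1 on the first chain and TYK2 on the other phosphorylate STAT3, which enters the nucleus and induces a set of genes. Mice without Il10 or its receptor develop inflammation of the colon, and macrophages of the gut wall are known as both producers of the cytokine and cells that respond to it.

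STAT3 binds DNA at palindromes of the form TTCNNNGAA, a motif that reads the same on both strands and is shared with other STAT proteins. Promoters of RefSeq (GRCm38.p6, 250 bases before to 50 after a gene's start) were found for 7 of the 10 genes, in 9 windows, and 3 of the 9 held the motif, against 8.3% of all 32851 promoters of that length. The windows were those of Socs3 and of 2 of the 3 starts of Nfkbid. Socs3 and Nfkbid are shown as the genes with a motif. They moved together among the colonic subsets but not between the tissues. Bcl3 moved with them among the subsets, and its window held no motif. The Socs3 window lies at chr11:117969317-117969616 on the minus strand. It is inside the GENCODE span of the gene, downstream of the GENCODE start at 117970047, and no measured Socs3 transcript starts in it. Its motif lies 154 bases before the RefSeq start site of the window. The Nfkbid window lies at chr7:30421481-30421780 on the plus strand, at the start of the transcript Nfkbid-203, with its motif 167 bases before the start site. The other window of Nfkbid with a motif, TTCAGAGAA at 139 bases before its start, belongs to Nfkbid-201. Capitals mark the motif, and a match is a description of the letters and not of binding.
Socs3 promoter: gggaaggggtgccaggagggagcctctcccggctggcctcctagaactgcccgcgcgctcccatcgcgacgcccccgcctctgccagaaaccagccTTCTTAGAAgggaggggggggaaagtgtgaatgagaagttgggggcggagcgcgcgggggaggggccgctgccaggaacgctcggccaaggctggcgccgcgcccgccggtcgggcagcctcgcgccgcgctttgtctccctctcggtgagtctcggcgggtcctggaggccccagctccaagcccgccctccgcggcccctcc
Nfkbid promoter: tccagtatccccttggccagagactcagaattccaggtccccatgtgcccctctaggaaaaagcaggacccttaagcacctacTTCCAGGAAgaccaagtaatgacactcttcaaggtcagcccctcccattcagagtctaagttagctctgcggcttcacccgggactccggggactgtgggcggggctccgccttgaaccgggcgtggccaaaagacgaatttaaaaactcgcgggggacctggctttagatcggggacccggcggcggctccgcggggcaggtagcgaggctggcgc

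Depth was 12806139 to 41769042 estimated counts per library. Levels are CPM, which are counts scaled to library size with TMM factors within a fit, or TPM, which are also scaled to transcript length, where genes are set side by side. The integrin transcripts followed the sort. Itgam, the CD11b gene, had 694 and 793 CPM in CD11b+CD11c+ libraries and 742 and 743 CPM in CD11b+ libraries, against 25.9 and 40.5 CPM in CD11c+ libraries. All 10 macrophage markers of a fixed list had reads in every group, and their summed level was 9046 and 11789 CPM in CD11b+CD11c+, 7768 and 8773 CPM in CD11b+, and 174 and 1163 CPM in CD11c+ libraries 1 and 2. The CD11c+ libraries thus stood apart from each other in macrophage transcripts, and in the summed level of 10 T cell markers (651 and 299 CPM). Results against CD11c+ cells that turn on 1 of these libraries are given without it.

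In colonic against splenic MHCII+ cells, 6 of the 10 genes were higher (Il10, Il10rb, Stat3, Socs3, Bcl3 and Etv3), 2 were lower (Il10ra and Tyk2), and Jak1 and Nfkbid did not pass the test. Across all genes edgeR's quasi-likelihood test called 60.3% at a Benjamini-Hochberg adjusted p under 0.05, 31.6% higher and 28.7% lower. The median log2 fold change of the 10 genes was 0.79, against 0.02 over all genes tested. In CD11b+ against CD11c+ cells, 7 were higher and 1 (Tyk2) lower, where 52.0% of all genes were called, 27.0% higher and 25.0% lower. The median was 1.59, against -0.02 over all genes.

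In CD11b+CD11c+ against CD11c+ cells, 8 were higher and 1 (Tyk2) lower, with 43.0% of all genes called, 20.4% higher and 22.5% lower. The median was 1.80, against -0.09 over all genes. In CD11b+CD11c+ against CD11b+ cells, 2 were higher (Tyk2 and Etv3) and 0 lower, with 9.63% of all genes called, 3.79% higher and 5.84% lower. The median was 0.11, against 0.01 over all genes. In that comparison an unadjusted p under 0.05 was reached by 3 of the 10 genes, and DESeq2 called the same number as edgeR, 2. The count was 0 without CD11b+CD11c+ library 1 or CD11b+ library 1, and 1 without CD11b+CD11c+ library 2 or CD11b+ library 2. The 3 subset comparisons share libraries, so they are given side by side and are not independent of each other.

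**Figure D1:**
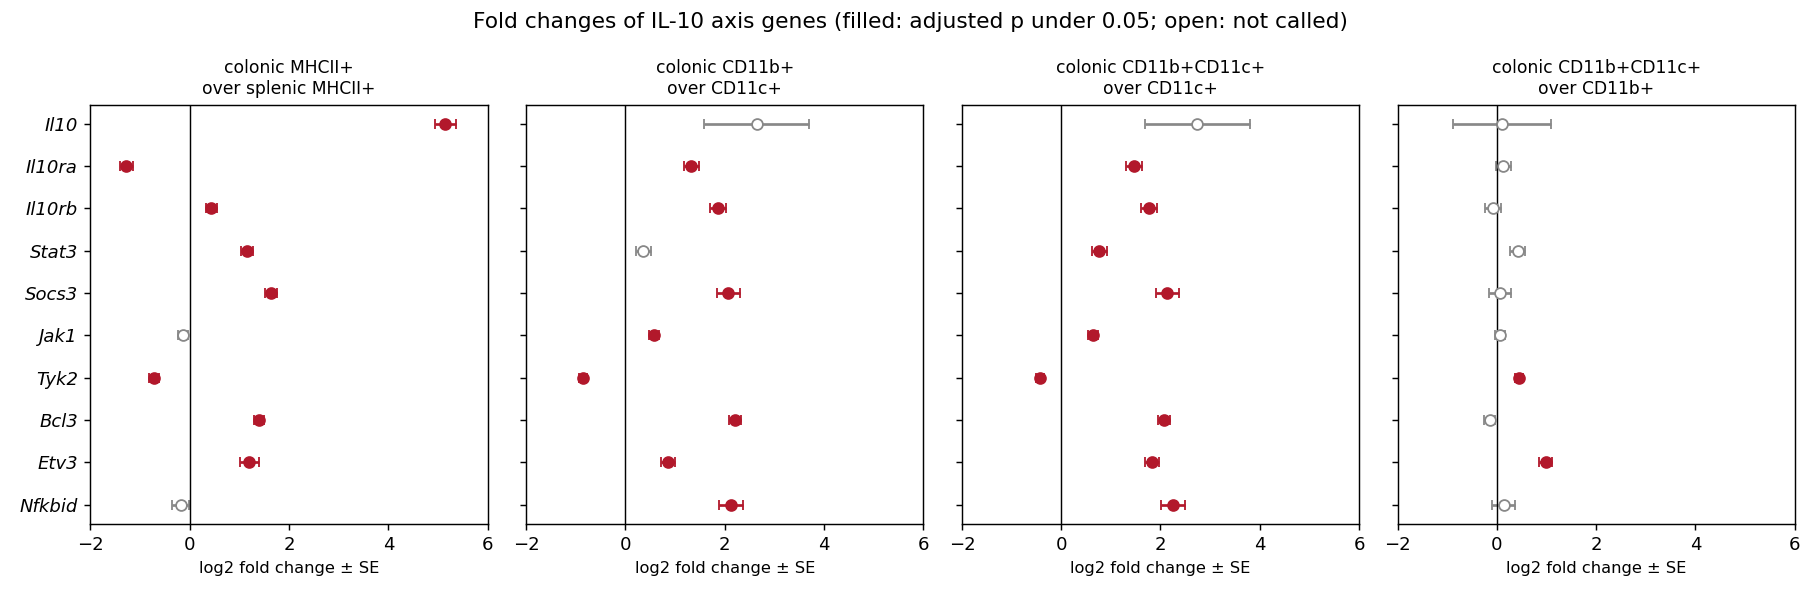
Log2 fold changes (horizontal axis) of the 10 IL-10 axis genes (rows) in the 4 comparisons (panels), as points with bars of 1 standard error, filled red where the adjusted p was under 0.05 and open grey where not. Il10 has the largest value in the first panel, 5.15, and the widest bars in the other 3, while 9 of 10 points are filled for CD11b+CD11c+ over CD11c+ cells and 2 for CD11b+CD11c+ over CD11b+ cells.

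Il10 (ENSMUSG00000016529.5, mm10 chromosome 1, 131019845 to 131024974, plus strand) encodes the ligand. It had 33.9 and 30.7 CPM in colonic MHCII+ libraries, against 0.986 and 0.816 CPM in splenic MHCII+ libraries. The reads behind these values were 1018 and 526 in the colon, against 42 and 27 in the spleen. Every colonic library lay above every splenic one, and the difference between the groups was far larger than the spread within them. Il10 was 35.5-fold higher in colonic MHCII+ cells (log2 fold change 5.15, SE 0.21, edgeR adjusted p = 7.5e-06), the largest change among the 10 genes in this comparison.

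Among the colonic subsets Il10 varied within every group. It had 136 and 317 CPM in CD11b+CD11c+ libraries 1 and 2, 164 and 258 CPM in CD11b+ libraries 1 and 2, and 4.97 and 63.4 CPM in CD11c+ libraries 1 and 2. Both groups of CD11b-bearing cells lay above both CD11c+ libraries, and CD11c+ library 1 was far below CD11c+ library 2. The difference did not pass the test: the log2 fold change was 2.64 in CD11b+ over CD11c+ cells (SE 1.05, 95% interval 0.08 to 5.20, edgeR adjusted p = 0.077). It was 2.74 in CD11b+CD11c+ over CD11c+ cells (SE 1.06, 95% interval 0.17 to 5.31, edgeR adjusted p = 0.08). In each subset library 2 had more Il10 than library 1. With the number in the titles added to the model, edgeR called both differences, though the labels do not state that it pairs libraries.

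The size of the Il10 difference turned on which CD11c+ library was used. Without CD11c+ library 1 the log2 fold changes were 1.72 in CD11b+ and 1.83 in CD11b+CD11c+ over CD11c+ cells. Without CD11c+ library 2 they were 5.40 and 5.50. Each of these fits leaves 1 CD11c+ library, so the spread between the CD11c+ libraries is no longer measured. They give the size of the difference and cannot decide whether it passes. CD11b+CD11c+ and CD11b+ libraries overlapped, with a log2 fold change of 0.10 (SE 0.99, 95% interval -2.29 to 2.49, edgeR adjusted p = 0.96), an interval wide enough to leave differences of several fold in either direction undetected.

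Macrophage transcripts were low in the same subset libraries as Il10. Csf1r, the receptor of macrophage growth factors, had 2103 and 2764 CPM in CD11b+CD11c+, 2051 and 2199 CPM in CD11b+, and 51.1 and 306 CPM in CD11c+ libraries 1 and 2. Per 100 Csf1r reads there were 6.45 and 11.5 Il10 reads in CD11b+CD11c+, 7.97 and 11.7 in CD11b+, and 9.73 and 20.7 in CD11c+ libraries. On this ratio the 3 subsets overlapped, and the CD11c+ libraries were not the low ones.

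Colon and spleen remained apart on the same ratio. Csf1r itself had 823 and 688 CPM in colonic MHCII+ and 633 and 713 CPM in splenic MHCII+ libraries and did not pass the test (log2 fold change 0.17, SE 0.13, edgeR adjusted p = 0.29). Il10 reads per 100 Csf1r reads were 4.12 and 4.47 in colonic MHCII+ libraries, against 0.156 and 0.114 in splenic MHCII+ libraries. The summed level of the 10 macrophage markers was 2480 and 2248 CPM in the colonic libraries, against 1082 and 1204 CPM in the splenic ones. Of that list, Adgre1 had 337 and 284 against 196 and 221 CPM, and C1qa 237 and 241 against 33.4 and 31.8 CPM. The size of the gap in the ratio therefore depends on the gene chosen as denominator. For 6 monocyte markers the sum was 691 and 680 CPM in the colonic libraries, against 1821 and 2186 CPM in the splenic ones. The part of these cells in the Il10 difference was not tested.

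Cell types other than macrophages can also make IL-10, and their markers also differed in level between the tissues. Summed levels in colonic against splenic MHCII+ libraries were 80.3 and 81.8 against 1411 and 1500 CPM for 7 B cell markers and 155 and 203 against 364 and 416 CPM for 10 T cell markers. Foxp3, which marks regulatory T cells, had 3 and 2.69 against 5.4 and 3.78 CPM. Plasma cell markers went the other way, with 14559 and 16370 against 239 and 214 CPM for 6 genes. Epithelial markers did too, with 5036 and 5087 against 13.8 and 16.8 CPM for 8 genes. All markers of these lists had reads in each of the 4 libraries, and their part in the Il10 difference was not tested.

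**Figure D2:**
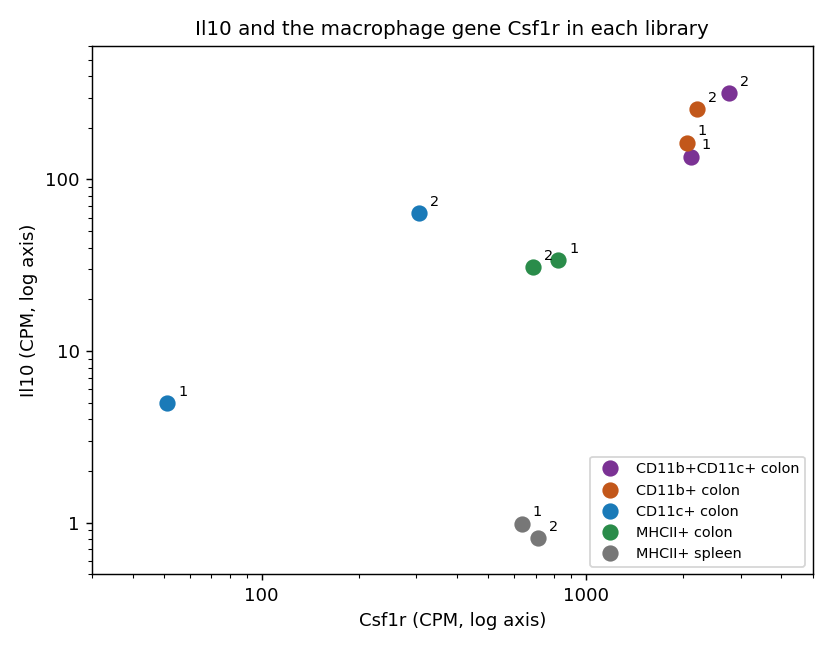
Il10 against Csf1r in each of the 10 libraries, both in CPM on log axes, with points numbered by library and coloured by group. The CD11b-bearing libraries lie at the upper right, the CD11c+ libraries at 51.1 and 306 CPM of Csf1r, and the splenic MHCII+ libraries near 1 CPM of Il10 at a Csf1r level close to that of the colonic MHCII+ libraries.

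The receptor chains differed from each other between the tissues. Il10ra (ENSMUSG00000032089.16, mm10 chromosome 9, 45253837 to 45269149, minus strand), the ligand-binding chain, had 172 and 138 CPM in colonic MHCII+ libraries, against 384 and 369 CPM in splenic MHCII+ libraries. The groups did not overlap. Il10ra was 2.43-fold lower in colonic MHCII+ cells (log2 fold change -1.28, SE 0.13, edgeR adjusted p = 0.00025).

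Ptprc, which encodes the leukocyte marker CD45, was lower by a like amount. It had 1170 and 1162 CPM in colonic MHCII+ and 3115 and 3132 CPM in splenic MHCII+ libraries (log2 fold change -1.42, SE 0.10, edgeR adjusted p = 6.1e-05). Per 100 Ptprc reads there were 14.7 and 11.9 Il10ra reads in colonic libraries, against 12.3 and 11.8 in splenic libraries. On that ratio the tissues overlapped. Per 100 Csf1r reads there were 20.9 and 20.1 Il10ra reads in colonic libraries, against 60.6 and 51.7 in splenic libraries, and on this ratio the colonic ones remained lower.

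Among the colonic subsets Il10ra had 241 and 274 CPM in CD11b+CD11c+, 227 and 245 CPM in CD11b+, and 80.5 and 107 CPM in CD11c+ libraries. Cells with CD11b lay above CD11c+ cells in every library. It was 2.75-fold higher in CD11b+CD11c+ than in CD11c+ cells (log2 fold change 1.46, SE 0.16) and 2.52-fold higher in CD11b+ than in CD11c+ cells (log2 fold change 1.33, SE 0.16), each at an edgeR adjusted p = 0.0013. Here Ptprc did not pass the test, at 1311 and 1352 CPM in CD11b+CD11c+, 1334 and 1461 CPM in CD11b+, and 1542 and 1280 CPM in CD11c+ libraries. Il10ra reads per 100 Ptprc reads were 18.4 and 20.3 in CD11b+CD11c+, 17 and 16.8 in CD11b+, and 5.22 and 8.36 in CD11c+ libraries, so the CD11c+ group was the lowest on this ratio as well. The order was the opposite per 100 Csf1r reads, with 11.5 and 9.93 Il10ra reads in CD11b+CD11c+, 11 and 11.1 in CD11b+, and 158 and 35 in CD11c+ libraries, in which Csf1r itself was low.

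Il10rb (ENSMUSG00000022969.13, mm10 chromosome 16, 91406164 to 91425834, plus strand) encodes the shared signalling chain. It had 112 and 103 CPM in colonic MHCII+ libraries, against 74.5 and 85.2 CPM in splenic MHCII+ libraries. The groups did not overlap, and Il10rb was 1.35-fold higher in colonic cells (log2 fold change 0.43, SE 0.11, edgeR adjusted p = 0.013). This call was lost without colonic library 1 (0.33, adjusted p = 0.0551), without splenic library 1 (0.32, adjusted p = 0.106), with limma on TPM (0.19, adjusted p = 0.448) and with an offset for effective length (0.38, adjusted p = 0.134).

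The subsets were further apart in Il10rb, with 151 and 172 CPM in CD11b+CD11c+, 170 and 173 CPM in CD11b+, and 40 and 54.8 CPM in CD11c+ libraries. Every CD11b-bearing library lay above every CD11c+ library. Il10rb was 3.42-fold higher in CD11b+CD11c+ than in CD11c+ cells (log2 fold change 1.77, SE 0.16, edgeR adjusted p = 9e-04) and 3.62-fold higher in CD11b+ than in CD11c+ cells (log2 fold change 1.86, SE 0.16, edgeR adjusted p = 0.00057). Its coding bases are shared with the readthrough gene Gm21970, which was given 0.848% to 2.71% as many reads. That share is an estimate, and how uncertain the division between these genes is was not tested.

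CD11b+CD11c+ and CD11b+ libraries overlapped in both chains. The log2 fold change of CD11b+CD11c+ over CD11b+ cells was 0.13 for Il10ra (95% interval -0.24 to 0.50, edgeR adjusted p = 0.65) and -0.08 for Il10rb (95% interval -0.47 to 0.30, edgeR adjusted p = 0.79).

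The receptor kinases moved in opposite directions against CD11c+ cells. Jak1 (ENSMUSG00000028530.14, mm10 chromosome 4, 101152367 to 101265282, minus strand), the kinase of IL10RA and of many other cytokine receptors, had 575 and 553 CPM in CD11b+CD11c+, 546 and 533 CPM in CD11b+, and 387 and 338 CPM in CD11c+ libraries. The CD11c+ libraries were the low ones. Jak1 was 1.55-fold higher in CD11b+CD11c+ than in CD11c+ cells (log2 fold change 0.64, SE 0.10, edgeR adjusted p = 0.0043) and 1.49-fold higher in CD11b+ than in CD11c+ cells (log2 fold change 0.57, SE 0.10, edgeR adjusted p = 0.005).

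Tyk2 (ENSMUSG00000032175.11, mm10 chromosome 9, 21104068 to 21131243, minus strand), the kinase of IL10RB and of the type I interferon receptor, had 118 and 113 CPM in CD11b+CD11c+, 85.4 and 85.1 CPM in CD11b+, and 150 and 159 CPM in CD11c+ libraries. The 3 groups did not overlap, with CD11c+ cells highest and CD11b+ cells lowest. Tyk2 was 1.81-fold lower in CD11b+ than in CD11c+ cells (log2 fold change -0.86, SE 0.08, edgeR adjusted p = 0.00075).

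The calls of the smaller Tyk2 differences depended on single libraries and on the method. Tyk2 was 1.34-fold lower in CD11b+CD11c+ than in CD11c+ cells (log2 fold change -0.42, SE 0.08, edgeR adjusted p = 0.0095), a call lost without CD11b+CD11c+ library 2 (-0.33, adjusted p = 0.088), with limma on TPM (-0.44, adjusted p = 0.128) and with the length offset (-0.47, adjusted p = 0.108). It was 1.36-fold higher in CD11b+CD11c+ than in CD11b+ cells (log2 fold change 0.44, SE 0.08, edgeR adjusted p = 0.025), a call lost on leaving out any library of either group (0.41 to 0.55, adjusted p = 0.0543 to 0.198), with limma on TPM (0.28, adjusted p = 0.453) and with the length offset (0.32, adjusted p = 0.391).

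Between the tissues only 1 of the 2 kinases passed. Tyk2 had 116 and 115 CPM in colonic MHCII+ libraries, against 200 and 181 CPM in splenic MHCII+ libraries, without overlap, and was 1.65-fold lower in the colon (log2 fold change -0.72, SE 0.10, edgeR adjusted p = 0.00088). Jak1 had 421 and 451 CPM in colonic libraries, against 462 and 492 CPM in splenic libraries. The Jak1 libraries of the tissues did not overlap, but the difference did not pass the test (log2 fold change -0.13, SE 0.10, 95% interval -0.37 to 0.11, edgeR adjusted p = 0.29). Jak1 reads per 100 Tyk2 reads were 362 and 394 in colonic MHCII+ libraries, against 231 and 272 in splenic MHCII+ libraries. In the subsets they were 486 and 489 in CD11b+CD11c+, 639 and 626 in CD11b+, and 257 and 213 in CD11c+ libraries.

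Stat3 (ENSMUSG00000004040.16, mm10 chromosome 11, 100885098 to 100939540, minus strand), the transcription factor of the axis, had 455 and 542 CPM in colonic MHCII+ libraries, against 223 and 223 CPM in splenic MHCII+ libraries. The colonic libraries were both above the splenic ones, which had the same value to the nearest CPM. Stat3 was 2.23-fold higher in the colon (log2 fold change 1.16, SE 0.12, edgeR adjusted p = 0.00025). Per 100 Ptprc reads it had 38.9 and 46.6 reads in colonic libraries, against 7.17 and 7.13 in splenic libraries.

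In the subsets Stat3 had 735 and 738 CPM in CD11b+CD11c+, 525 and 579 CPM in CD11b+, and 491 and 372 CPM in CD11c+ libraries. The 3 groups did not overlap, with CD11b+CD11c+ cells highest. Stat3 was 1.71-fold higher in CD11b+CD11c+ than in CD11c+ cells (log2 fold change 0.77, SE 0.15, edgeR adjusted p = 0.0083). The difference of CD11b+ over CD11c+ cells did not pass (log2 fold change 0.36, SE 0.15, 95% interval 0.00 to 0.71, edgeR adjusted p = 0.084), though it did with DESeq2 (adjusted p = 0.0499). Without CD11c+ library 1, which leaves 1 CD11c+ library, the log2 fold change was 0.56. The difference of CD11b+CD11c+ over CD11b+ cells did not pass either (log2 fold change 0.42, SE 0.15, 95% interval 0.06 to 0.77, edgeR adjusted p = 0.14), though it did on leaving out CD11c+ library 1 or 2 (adjusted p = 0.0373 and 0.0385) and with no count filter (0.52, adjusted p = 0.0457).

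Stat3 transcripts were divided between forms that differ near the 3′ end of the coding sequence, which ends in the transactivation domain. Stat3-203 (2313 coding bases) held 63.8% to 74.0% of the Stat3 TPM over the 10 libraries and Stat3-201 (2310 coding bases) held 23.5% to 34.3%. Stat3-201 lacks 3 bases, shown in capitals, that follow base 2100 of the coding sequence of Stat3-203.
Stat3-203: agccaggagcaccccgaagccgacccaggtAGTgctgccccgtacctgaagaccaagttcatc
Stat3-201: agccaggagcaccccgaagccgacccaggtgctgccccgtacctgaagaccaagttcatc

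Stat3-202 encodes the beta form, in which the transactivation domain is replaced by a short tail. It is shown beside Stat3-203 from 30 bases before the point at which they part, after base 2145, with the differing bases in capitals. The sequences come from the GENCODE M21 transcripts. The beta form held 0.0% to 2.6% of the Stat3 TPM, at most 3.02 TPM in any library. The division of reads between such near-identical forms is an estimate of kallisto, the program that assigned the reads.
Stat3-202: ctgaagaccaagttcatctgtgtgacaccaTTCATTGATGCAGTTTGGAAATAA
Stat3-203 at the same place: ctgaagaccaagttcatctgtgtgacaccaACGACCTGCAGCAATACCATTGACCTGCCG

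Stat3-201 held 34.3% and 28.1% of Stat3 TPM in colonic MHCII+ libraries, against 23.5% and 23.6% in splenic MHCII+ libraries. It held 29.7% and 25.1% in CD11b+CD11c+, 29.0% and 27.4% in CD11b+, and 34.3% and 30.1% in CD11c+ libraries. The splenic libraries were the lowest of all 10, and the colonic subsets overlapped in part.

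Socs3 (ENSMUSG00000053113.3, mm10 chromosome 11, 117966079 to 117970047, minus strand) encodes an inhibitor that blocks signalling by interleukin 6 type receptors but not by the IL-10 receptor. It had 114 and 107 CPM in colonic MHCII+ libraries, against 32 and 39 CPM in splenic MHCII+ libraries. The groups did not overlap, and Socs3 was 3.12-fold higher in the colon (log2 fold change 1.64, SE 0.12, edgeR adjusted p = 7.4e-05). Socs3 reads per 100 Stat3 reads were 25.2 and 19.7 in colonic libraries, against 14.3 and 17.5 in splenic libraries.

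Among the subsets Socs3 had 207 and 285 CPM in CD11b+CD11c+, 222 and 249 CPM in CD11b+, and 45.8 and 66.3 CPM in CD11c+ libraries. Cells with CD11b overlapped with each other and lay above CD11c+ cells. Socs3 was 4.39-fold higher in CD11b+CD11c+ than in CD11c+ cells (log2 fold change 2.14, SE 0.23, edgeR adjusted p = 0.0013) and 4.2-fold higher in CD11b+ than in CD11c+ cells (log2 fold change 2.07, SE 0.23, edgeR adjusted p = 0.0011). Per 100 Stat3 reads it had 28.1 and 38.7 reads in CD11b+CD11c+, 42.2 and 43 in CD11b+, and 9.33 and 17.8 in CD11c+ libraries, and the CD11c+ libraries were the lowest on this ratio too. Between CD11b+CD11c+ and CD11b+ cells the log2 fold change was 0.06 (95% interval -0.47 to 0.59, edgeR adjusted p = 0.89).

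The other induced genes encode nuclear regulators that dampen inflammatory transcription in macrophages. Bcl3 (ENSMUSG00000053175.17, mm10 chromosome 7, 19808462 to 19822770, minus strand), a nuclear protein of the IκB family, had 188 and 205 CPM in colonic MHCII+ libraries, against 72.9 and 77.3 CPM in splenic MHCII+ libraries. The groups did not overlap, and Bcl3 was 2.62-fold higher in the colon (log2 fold change 1.39, SE 0.10, edgeR adjusted p = 5.3e-05).

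Bcl3 had 186 and 185 CPM in CD11b+CD11c+, 204 and 204 CPM in CD11b+, and 39.4 and 48.7 CPM in CD11c+ libraries. The CD11c+ libraries were the low ones. It was 4.22-fold higher in CD11b+CD11c+ than in CD11c+ cells (log2 fold change 2.08, SE 0.12, edgeR adjusted p = 0.00029) and 4.63-fold higher in CD11b+ than in CD11c+ cells (log2 fold change 2.21, SE 0.12, edgeR adjusted p = 0.00021). CD11b+CD11c+ libraries lay just below CD11b+ libraries, and this difference did not pass (log2 fold change -0.14, 95% interval -0.41 to 0.14, edgeR adjusted p = 0.51).

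Etv3 (ENSMUSG00000003382.18, mm10 chromosome 3, 87525407 to 87540156, plus strand) encodes a repressor of the ETS family. It had 263 and 247 CPM in colonic MHCII+ libraries, against 133 and 88 CPM in splenic MHCII+ libraries, without overlap. It was 2.3-fold higher in the colon (log2 fold change 1.20, SE 0.19, edgeR adjusted p = 0.002). In the subsets it had 643 and 615 CPM in CD11b+CD11c+, 297 and 338 CPM in CD11b+, and 156 and 197 CPM in CD11c+ libraries. The 3 groups did not overlap, and CD11b+CD11c+ cells were the highest.

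Etv3 was 1.98-fold higher in CD11b+CD11c+ than in CD11b+ cells (log2 fold change 0.98, SE 0.14, edgeR adjusted p = 0.0098). The call was lost without CD11b+CD11c+ library 1 (0.96, adjusted p = 0.0686) and without CD11b+ library 1 (0.90, adjusted p = 0.103). It was 3.56-fold higher in CD11b+CD11c+ than in CD11c+ cells (log2 fold change 1.83, SE 0.14, edgeR adjusted p = 6e-04) and 1.8-fold higher in CD11b+ than in CD11c+ cells (log2 fold change 0.85, SE 0.14, edgeR adjusted p = 0.0039). Flt3, a receptor of the dendritic cell lineage, also passed between CD11b+CD11c+ and CD11b+ cells, at 142 and 79.4 against 24.2 and 21.8 CPM. The summed level of 8 conventional dendritic cell markers was 551 and 322 CPM in CD11b+CD11c+ libraries, against 104 and 90.9 CPM in CD11b+ libraries, and its part in the Etv3 difference was not tested.

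Nfkbid (ENSMUSG00000036931.15, mm10 chromosome 7, 30421732 to 30428746, plus strand) encodes IκBNS, a nuclear inhibitor of NF-κB that was described in macrophages of the colon wall. It did not pass between the tissues, at 172 and 182 CPM in colonic MHCII+ libraries, against 235 and 164 CPM in splenic MHCII+ libraries. The splenic libraries spanned the colonic ones (log2 fold change -0.18, SE 0.17, 95% interval -0.59 to 0.24, edgeR adjusted p = 0.4). The sign turned on the splenic libraries: the log2 fold change was 0.10 without library 1 and -0.43 without library 2, each with 1 splenic library left.

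Among the subsets Nfkbid followed Bcl3 and Socs3, with 201 and 275 CPM in CD11b+CD11c+, 196 and 236 CPM in CD11b+, and 40.6 and 59.1 CPM in CD11c+ libraries. It was 4.78-fold higher in CD11b+CD11c+ than in CD11c+ cells (log2 fold change 2.26, SE 0.24, edgeR adjusted p = 0.0013) and 4.34-fold higher in CD11b+ than in CD11c+ cells (log2 fold change 2.12, SE 0.24, edgeR adjusted p = 0.0011). CD11b+CD11c+ and CD11b+ libraries overlapped (log2 fold change 0.14, 95% interval -0.41 to 0.69, edgeR adjusted p = 0.75). Nfkbid-203, the transcript whose promoter is printed above, held 53.4% to 88.1% of the Nfkbid TPM over the 10 libraries.

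**Figure D3:**
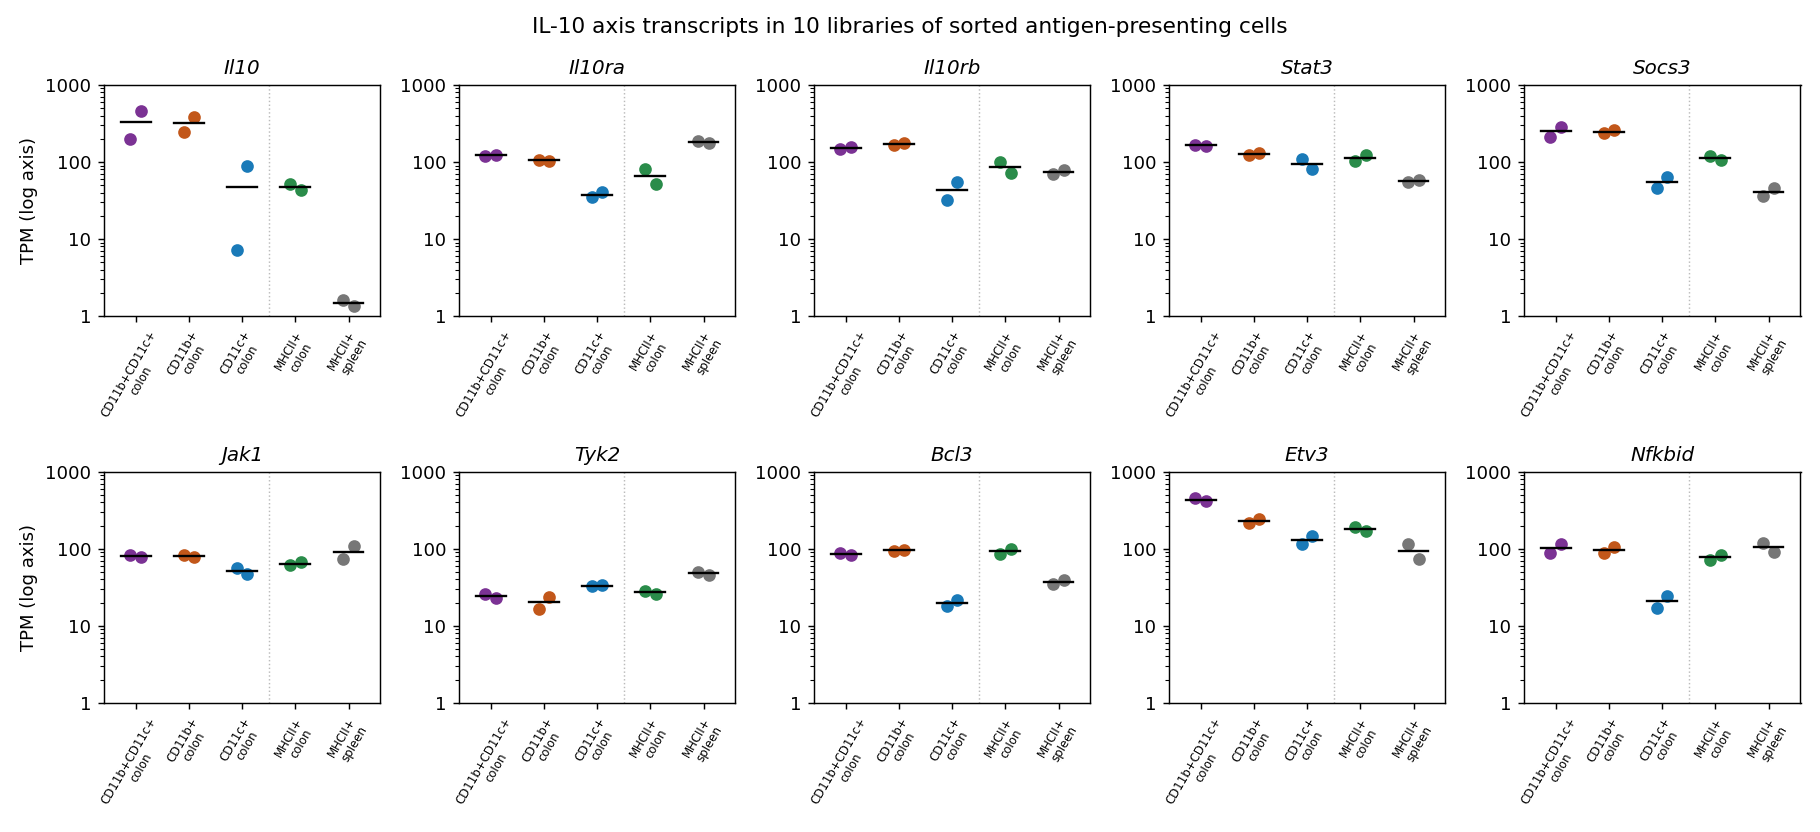
TPM (log axis) of the 10 IL-10 axis genes in each library, with 1 panel per gene, points for the 2 libraries of a group and a bar at the group mean, and a dotted line between the subset libraries and the MHCII+ libraries. Il10 spans from 1.37 to 461 TPM over the libraries, while Jak1 spans from 47.4 to 110 TPM.

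Set side by side per length, Etv3 had the highest mean TPM of the 10 genes in CD11b+CD11c+, CD11c+ and colonic MHCII+ cells, Il10 in CD11b+ cells and Il10ra in splenic MHCII+ cells. In CD11b+CD11c+ cells the mean TPM was 433 for Etv3, 328 for Il10 and 249 for Socs3. In CD11b+ cells it was 317 for Il10, 247 for Socs3 and 229 for Etv3. Il10 ranked 440 of 22010 coding genes by mean TPM in CD11b+CD11c+ cells and 454 in CD11b+ cells. It ranked 2290 in CD11c+, 2598 in colonic MHCII+ and 11267 in splenic MHCII+ cells, the lowest rank of any of the 10 genes in any group.

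In CD11c+ cells Etv3 led with 131 TPM, followed by Stat3 with 94.9 TPM, and the chains Il10ra and Il10rb had 37.8 and 43.6 TPM. In splenic MHCII+ cells Il10ra led with 182 TPM, and Il10 was last with 1.49 TPM. These are group means. The level of Etv3 per length rests on annotation, since the form Etv3-201, of 441 coding bases, took 57.9% to 66.6% of its TPM. Over the longest coding sequence Etv3 had a level per kilobase of 401 and 374 in CD11b+CD11c+ libraries (scaled counts divided by length). Il10 had 242 and 554 there, which spanned the Etv3 values, so these genes were not told apart on this scale. On this scale Stat3 lay above Etv3 in CD11c+ libraries, at 227 and 164 against 108 and 130. It did so too in colonic MHCII+ libraries, at 192 and 226 against 167 and 154, so the lead of Etv3 in these groups held in TPM alone.

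Short annotated forms also weigh on the TPM of other members. The 54-base form Jak1-206 took 24.0% of Jak1 TPM in splenic library 2 from 15.6 of 16275 reads and 0.0% elsewhere. The 159-base form Il10rb-205 took 19.8% to 48.3% of Il10rb TPM, and the 258-base form Il10ra-203 took 16.5% to 39.9% of Il10ra TPM. The tests above were made on counts, which give such forms weight by their reads alone.

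By mean TPM, Il10 ran from CD11b+CD11c+ through CD11b+, CD11c+ and colonic MHCII+ to splenic MHCII+ cells. CD11b+CD11c+ and CD11b+ libraries overlapped, as did CD11c+ and colonic MHCII+ libraries, and the other neighbours did not. Il10ra ran from splenic MHCII+ through CD11b+CD11c+, CD11b+ and colonic MHCII+ to CD11c+ cells, with no overlap between neighbours. Il10rb ran from CD11b+ through CD11b+CD11c+, colonic MHCII+ and splenic MHCII+ to CD11c+ cells, with overlap between the MHCII+ groups alone. In CPM, by contrast, CD11b+CD11c+ and CD11b+ libraries overlapped in both chains, and the MHCII+ groups did not overlap in Il10rb.

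Stat3 and Socs3 were lowest in splenic MHCII+ cells and highest in CD11b+CD11c+ cells, which overlapped with CD11b+ cells in Socs3. Bcl3 and Nfkbid were lowest in CD11c+ cells. Tyk2 was highest in splenic MHCII+ cells and lowest in CD11b+ cells, which overlapped with CD11b+CD11c+ cells on this scale.

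Other genes of the pathway were counted by list. Of 16 other genes known to be induced by IL-10 in macrophages, 13 were higher and 0 lower in colonic than in splenic MHCII+ cells, where 31.6% of all genes were higher and 28.7% lower. The median log2 fold change of the list was 1.07, against 0.02 over all genes. Sbno2, a transcriptional regulator, had 574 and 665 CPM in colonic libraries, against 445 and 434 CPM in splenic libraries (log2 fold change 0.49, SE 0.11, edgeR adjusted p = 0.0081). Il4ra, a chain of the interleukin 4 receptor, had 340 and 428 CPM, against 138 and 152 CPM (log2 fold change 1.40, SE 0.14, edgeR adjusted p = 0.00022). Zfp36, Il21r and Fcgr1 did not pass.

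The same list gave 12 higher and 0 lower in CD11b+ than in CD11c+ cells (median 1.44), where 27.0% of all genes were higher, and 14 higher and 0 lower in CD11b+CD11c+ than in CD11c+ cells (median 1.83), where 20.4% were higher. Without CD11b+ library 2 the count of CD11b+ over CD11c+ cells was 8. Sbno2 had 863 and 913 CPM in CD11b+CD11c+, 762 and 828 CPM in CD11b+, and 180 and 238 CPM in CD11c+ libraries. Zfp36, which destabilises cytokine mRNAs, had 1710 and 2103 CPM in CD11b+CD11c+, 1520 and 1653 CPM in CD11b+, and 516 and 767 CPM in CD11c+ libraries. Cd163 and Fcgr1 of this list are also on the list of macrophage markers.

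Between CD11b+CD11c+ and CD11b+ cells 2 of the 16 were higher and 0 lower, where 9.63% of all genes were called. Tnip3, an inhibitor of NF-κB signalling, had 227 and 216 CPM in CD11b+CD11c+ libraries, against 84.6 and 86.7 CPM in CD11b+ libraries (log2 fold change 1.37, SE 0.15, edgeR adjusted p = 0.0051). Ddit4, a stress-induced inhibitor of mTOR, had 28.3 and 29.1 CPM, against 21.9 and 19.5 CPM (log2 fold change 0.47, SE 0.11, edgeR adjusted p = 0.045). The count was 5 without CD11c+ library 1, 4 without CD11c+ library 2, 0 without CD11b+ library 1, and 1 without CD11b+ library 2 or either CD11b+CD11c+ library.

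Of 16 genes that IL-10 is known to repress, 12 were higher in colonic than in splenic MHCII+ cells and 1, Il12a, was lower, where 31.6% of all genes were higher and 28.7% lower. The median was 2.51, against 0.02 over all genes, and Il12b, Ccl3 and Ptgs2 did not pass. Il1b, the inflammatory cytokine interleukin 1 beta, had 2242 and 2142 CPM in colonic libraries, against 325 and 394 CPM in splenic libraries (log2 fold change 2.61, SE 0.13, edgeR adjusted p = 1.6e-05). Cxcl2, a neutrophil attractant, had 368 and 295 CPM, against 17.4 and 10.1 CPM (log2 fold change 4.58, SE 0.28, edgeR adjusted p = 3.1e-05).

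In the subsets 14 of these genes could be tested. In CD11b+ over CD11c+ cells 12 were higher and 1, Il12b, lower (median 2.16), where 27.0% of all genes were higher and 25.0% lower. In CD11b+CD11c+ over CD11c+ cells 12 were higher and 0 lower (median 2.29), where 20.4% and 22.5% of all genes were. The 13 calls of CD11b+ over CD11c+ cells became 3 on leaving out CD11b+ library 1 or 2, and the 12 of CD11b+CD11c+ over CD11c+ cells became 4 without CD11b+CD11c+ library 2. Cxcl2 had 1234 and 1749 CPM in CD11b+CD11c+, 1210 and 1478 CPM in CD11b+, and 26.9 and 271 CPM in CD11c+ libraries 1 and 2, a split of the CD11c+ libraries like that of Il10. In CD11b+CD11c+ over CD11b+ cells 9.63% of all genes were called, and 3 of the 14 had an unadjusted edgeR p under 0.05. Only Il6 of the 14 was called, at 40.2 and 43.3 against 27 and 25.9 CPM (log2 fold change 0.66, SE 0.12, edgeR adjusted p = 0.02). That count was 3 on leaving out CD11c+ library 1 or 2 and 0 on leaving out any CD11b+CD11c+ or CD11b+ library.

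NF-κB subunits and their inhibitors, the partners of Bcl3 and Nfkbid, were higher in 7 of 9 cases in colonic over splenic MHCII+ cells, with 0 lower (median 1.16), where 31.6% of all genes were higher and 28.7% lower. Nfkbia, the cytoplasmic inhibitor IκBα, had 1004 and 1003 CPM in colonic libraries, against 410 and 317 CPM in splenic libraries. Nfkb2 had 773 and 813 CPM, against 347 and 329 CPM. All 9 were higher in CD11b+ over CD11c+ cells (median 1.14), where 27.0% of all genes were, and in CD11b+CD11c+ over CD11c+ cells (median 1.55), where 20.4% were. In CD11b+CD11c+ over CD11b+ cells edgeR called 0 of the 9, with 2 at an unadjusted p under 0.05, while DESeq2 called 2 and limma on TPM 0. The count was 1 on leaving out CD11c+ library 1 or 2.

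**Figure D4:**
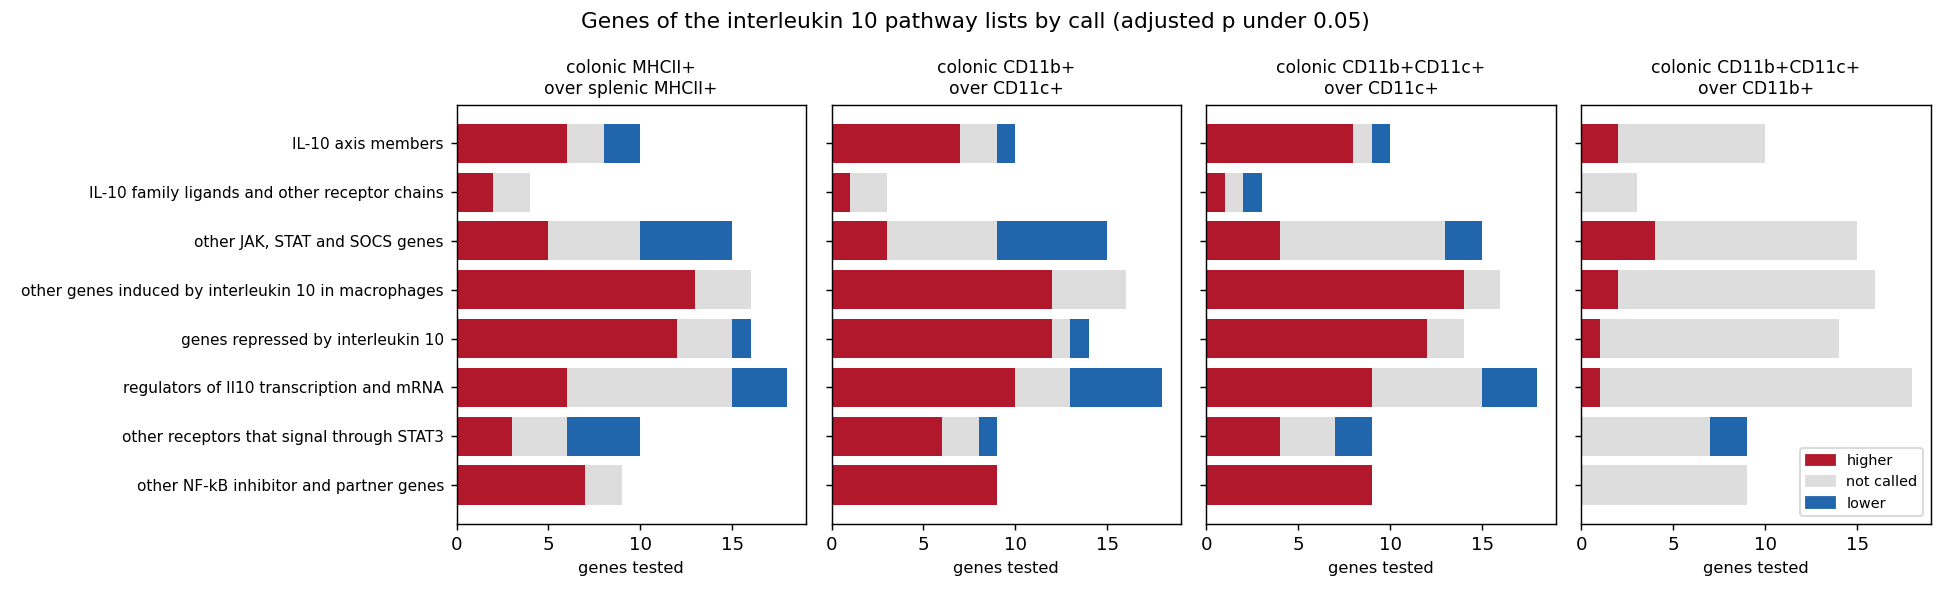
Numbers of genes called higher (red), lower (blue) and not called (grey) by edgeR among the IL-10 axis genes and 7 fixed pathway lists (rows) in the 4 comparisons (panels), with the number tested on the horizontal axis. Genes induced and repressed by IL-10 are mostly red in the first 3 panels and mostly grey in the fourth, and the JAK, STAT and SOCS list holds both colours in the first 3.

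Other JAK, STAT and SOCS genes did not share a direction. In colonic over splenic MHCII+ cells 5 of 15 were higher and 5 lower (median 0.03), in CD11b+ over CD11c+ cells 3 and 6 (median -0.26), in CD11b+CD11c+ over CD11c+ cells 4 and 2 (median -0.01) and in CD11b+CD11c+ over CD11b+ cells 4 and 0 (median 0.17). The shares of all genes called were 60.3%, 52.0%, 43.0% and 9.63% in the same order, and the counts in the first 3 comparisons are near those shares. Jak2, the kinase of growth factor and interleukin 12 receptors, had 685 and 656 CPM in colonic MHCII+ libraries, against 487 and 454 CPM in splenic MHCII+ libraries, without overlap (log2 fold change 0.51, SE 0.10, edgeR adjusted p = 0.0044).

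Among the subsets Jak2 was lowest in CD11b+ cells. It had 874 and 692 CPM in CD11b+CD11c+, 300 and 308 CPM in CD11b+, and 778 and 803 CPM in CD11c+ libraries. It was 2.58-fold higher in CD11b+CD11c+ than in CD11b+ cells (log2 fold change 1.37, SE 0.13, edgeR adjusted p = 0.0031) and 2.6-fold lower in CD11b+ than in CD11c+ cells (log2 fold change -1.38, SE 0.13, edgeR adjusted p = 0.00068). Stat6, which carries the interleukin 4 signal, had 297 and 291 CPM in CD11b+CD11c+, 290 and 281 CPM in CD11b+, and 186 and 191 CPM in CD11c+ libraries. The count of 4 in CD11b+CD11c+ over CD11b+ cells was 1 without CD11b+CD11c+ library 1, without CD11b+ library 1 or without CD11b+ library 2.

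Regulators of Il10 transcription and of its mRNA were mixed as well. In colonic over splenic MHCII+ cells 6 of 18 were higher and 3 lower (median 0.09), where 60.3% of all genes were called and 31.6% were higher. Bhlhe40, a repressor of Il10 in T cells and macrophages of the mouse, had 521 and 502 CPM in colonic libraries, against 252 and 128 CPM in splenic libraries (log2 fold change 1.43, SE 0.29, edgeR adjusted p = 0.0057). Dusp1, a phosphatase that limits p38 signalling, had 654 and 647 CPM, against 1306 and 789 CPM (log2 fold change -0.69, SE 0.22, edgeR adjusted p = 0.035). The higher genes also held Maf and Prdm1, both activators of Il10.

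In CD11b+ over CD11c+ cells 10 of these 18 were higher and 5 lower (median 0.31), where 52.0% of all genes were called, and in CD11b+CD11c+ over CD11c+ cells 9 and 3 (median 0.40), where 43.0% were, again with Maf and Prdm1 among the higher ones. Dusp1 had 853 and 1144 CPM in CD11b+CD11c+, 872 and 985 CPM in CD11b+, and 176 and 262 CPM in CD11c+ libraries. In CD11b+CD11c+ over CD11b+ cells 9.63% of all genes were called, and 10 of the 18 had an unadjusted edgeR p under 0.05. Only Bhlhe40 of the 18 was called, at 461 and 423 against 222 and 212 CPM (log2 fold change 1.03, SE 0.09, edgeR adjusted p = 0.0026). That count was 2 on leaving out CD11c+ library 1, CD11c+ library 2 or CD11b+CD11c+ library 1, 4 with DESeq2, and 6 with no count filter or in a fit over all 10 libraries.

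Other receptors that signal through STAT3 gave 3 higher and 4 lower of 10 in colonic over splenic MHCII+ cells, with a median of 0.17. These counts are near the shares over all genes, 31.6% higher and 28.7% lower. Il6st, the gp130 chain that SOCS3 binds, had 102 and 91.5 CPM in colonic libraries, against 178 and 181 CPM in splenic libraries (log2 fold change -0.89, SE 0.10, edgeR adjusted p = 0.00038). Csf3r, the receptor of the granulocyte growth factor, had 108 and 98.8 CPM, against 476 and 749 CPM. Csf3r is also a neutrophil marker, and the summed level of 8 such markers was 437 and 356 CPM in colonic libraries, against 5205 and 7606 CPM in splenic libraries. Its part in the difference was not tested.

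In CD11b+ over CD11c+ cells 6 of 9 such receptors were higher and 1 lower (median 1.25), and in CD11b+CD11c+ over CD11c+ cells 4 and 2 (median 0.06). In CD11b+CD11c+ over CD11b+ cells 0 were higher and 2 lower with a median of 0.14, a sign opposite to the calls. Of all genes 52.0%, 43.0% and 9.63% were called in these comparisons. Il6ra, the interleukin 6 receptor, had 91.3 and 95.3 CPM in CD11b+CD11c+, 75 and 94 CPM in CD11b+, and 41.7 and 58.6 CPM in CD11c+ libraries. Lepr, the leptin receptor, had 3.66 and 5.06 CPM in CD11b+CD11c+ libraries, against 22 and 23 CPM in CD11b+ libraries (log2 fold change -2.37, SE 0.20, edgeR adjusted p = 0.0023). Osmr, the oncostatin M receptor, had 2.37 and 3.81 CPM, against 9.77 and 10.4 CPM (log2 fold change -1.71, SE 0.26, edgeR adjusted p = 0.013). The 2 calls became 4 on leaving out CD11c+ library 1 or 2, and 1 on leaving out CD11b+CD11c+ library 1 or either CD11b+ library. The summed level of 7 stromal and endothelial markers was 841 and 682 CPM in CD11b+CD11c+ libraries, against 4292 and 3861 CPM in CD11b+ libraries, and its part was not tested.

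The IL-10 family was sparse. Of 10 other ligands and receptor chains, 4 could be tested in the MHCII+ libraries and 3 in the subsets, and Il19, Il20, Il24, Ifnl2, Ifnl3 and Il20ra were under the filter in both. Il22, a cytokine of innate lymphoid and T cells that acts on epithelium through IL10RB, had 363 and 214 reads in colonic MHCII+ libraries, against 0 and 1 in splenic libraries, a ratio of 927 after scaling (95% exact binomial interval 166 to 36660). Il22ra1, its receptor chain on epithelium, had 74 and 71 reads in colonic libraries and 0 in either splenic library, at least 41.1-fold higher against a floor of 3 counts per library. These intervals and floors cover counting error only. The summed level of 8 epithelial markers was 5036 and 5087 CPM in colonic libraries, against 13.8 and 16.8 CPM in splenic libraries, and that of 7 markers of innate lymphoid and NK cells was 117 and 141 CPM, against 64.2 and 81 CPM. Their part in these differences was not tested.

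In the subsets the median of the family was -0.18, -0.26 and -0.08 in CD11b+ over CD11c+, CD11b+CD11c+ over CD11c+ and CD11b+CD11c+ over CD11b+ cells. Il20rb was called higher in the first 2, at 3.25 and 3.5 CPM in CD11b+CD11c+, 2 and 1.48 CPM in CD11b+, and 0.569 and 0.845 CPM in CD11c+ libraries. Its CD11b+ over CD11c+ call was lost without CD11c+ library 1, without CD11b+ library 1 and without CD11b+ library 2, and the count of the family was 2 without CD11c+ library 2. Il22 was lower in CD11b+CD11c+ than in CD11c+ cells, at 0.678 and 0.778 against 4.36 and 1.69 CPM (log2 fold change -2.08, SE 0.54, edgeR adjusted p = 0.024). The summed level of 10 T cell markers was 137 and 167 CPM in CD11b+CD11c+ libraries, against 651 and 299 CPM in CD11c+ libraries, with CD11c+ library 1 the highest as for Il22, and its part was not tested. Of the 2 family genes called there, 1 was left on leaving out CD11c+ library 1, either CD11b+CD11c+ library or CD11b+ library 2. In CD11b+CD11c+ over CD11b+ cells edgeR called 0 of the 3, with 1 at an unadjusted p under 0.05, and DESeq2 and limma on TPM also called 0.

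The genes whose levels ran most like Il10 were sought over the 10 libraries among 10691 coding genes, by the root mean square difference of centred log2(CPM + 1). They were Cxcl2 (0.44), Cxcl1 (0.48), Il1a (0.55), Ms4a7 (0.62) and C3ar1 (0.69), where the median gene was at 2.74. Cxcl1 and Cxcl2 are chemokines, Il1a an inflammatory cytokine, Ms4a7 a membrane protein of macrophages and C3ar1 the receptor of complement C3a. Cxcl2, Cxcl1 and Il1a also stand on the list of genes that IL-10 represses.

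Il1a had 235 and 416 CPM in CD11b+CD11c+, 271 and 350 CPM in CD11b+, 19.1 and 103 CPM in CD11c+, 118 and 88.7 CPM in colonic MHCII+, and 1.81 and 1.18 CPM in splenic MHCII+ libraries. Ms4a7 had 195 and 289, 202 and 260, 5 and 56.2, 46.1 and 43.5, and 4.79 and 5.14 CPM in the same order. In both the CD11c+ library with less Il10 was the lower one.

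The genes most like Il10ra were Dglucy (0.08), a D-glutamate cyclase, Rasa4 (0.13), a RAS GTPase-activating protein, Dusp7 (0.17), a phosphatase of MAP kinases, Atg4c (0.18), a protease of autophagy, and Ifih1 (0.19), the RNA sensor MDA5, where the median gene was at 0.79. Rasa4 had 184 and 198 CPM in CD11b+CD11c+, 168 and 183 CPM in CD11b+, 70.6 and 92.1 CPM in CD11c+, 123 and 123 CPM in colonic MHCII+, and 277 and 254 CPM in splenic MHCII+ libraries. These 5 genes are not on the pathway lists.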

How the data were processed

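Polyadenylated RNA of sorted cells was sequenced from directional libraries, per the labels' protocols. The authors deposited 1 table per library, with an estimated count, a length and a TPM value for each of 66760 transcripts. The deposited estimated counts are not scaled for depth, per the file headers. Reads were assigned with kallisto 0.44.0 to mm10, and sleuth was used, per the submitters' processing notes. The deposited TPM are scaled within each library over effective length. Neither the index release nor the strand setting is given in the sources used here. Since 88.9% of lengths are multiples of 3, they are coding lengths.

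Transcripts were matched by ID to GENCODE M21 (65747, or 98.48%; the rest held 0.532% to 0.912% of counts) and summed to genes, with counts rounded to whole numbers. The MHCII+ libraries (4) and the subset libraries (6) were fitted separately with edgeR 4.0.16 (filterByExpr, TMM scaling, quasi-likelihood F test on group alone) in R 4.3.3, on 15076 and 14225 genes, with Benjamini-Hochberg adjustment over all of them and a threshold of 0.05. Common biological variation, as a coefficient, was 0.18 in the first fit and 0.174 in the other. Standard errors were derived from the F statistics, and 95% intervals from the t distribution with the moderated degrees of freedom. On simulated data the test recovered 64.1% of genes changed by 1 on the log2 scale in the MHCII+ comparison. It recovered 62% in the CD11b+ over CD11c+ comparison, and 100% of those changed by 2 in each. The simulation gave every gene the same common variation and changed only genes above a minimum mean level. These shares therefore do not hold for a gene that varied between libraries as Il10 did among the subsets.

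Alternatives were RLE size factors, no count filter, DESeq2 1.42.0, limma 3.58.1 on log2(TPM + 1), an offset for effective length, 1 fit over all 10 libraries, the number in the titles as a replicate block, and leaving out each library. Replicates correlated at 0.981 to 0.994 in log2 CPM across genes (the labels do not state whether they are independent). A chi-square of their counts came to 11.2 to 40 per gene, where sampling noise gives about 1, so no library was a copy of another.

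The 10 genes, the 7 pathway lists and the 11 marker lists were chosen with earlier results of these data known. Named genes were all 10, up to 2 called members of each list per comparison by mean CPM, and the 5 genes most like Il10 and Il10ra with at least 5 CPM on average. A gene that this rule selected is not reported here. Other genes named without values were taken from the lists after their calls were seen. Opposite-strand genes overlap Stat3, Jak1, Tyk2, Bcl3 and Il10ra in the annotation, but no coding bases of the 10 genes are shared apart from those of Il10rb with Gm21970. Both splenic titles carry the number 1, so those libraries were numbered by accession.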

Additional observations from a re-analysis of the deposited data

How the results depend on the processing

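Over 490 refits of single IL-10 axis genes, 446 kept their direction and their side of the threshold, 15 lost a call, 16 gained a call and 13 turned their sign. The sign turned only in values that were not called. Nfkbid in colonic over splenic MHCII+ cells became 0.10 without splenic library 1, and its leave-one-out range was -0.43 to 0.10. The others were in CD11b+CD11c+ over CD11b+ cells: Il10 with limma (-0.04), with the replicate block (-0.06) and on leaving out libraries (-0.56 to 0.59), Il10rb with no count filter (0.02), in 1 fit over all 10 libraries (0.01) and on leaving out libraries (-0.10 to 0.03), Socs3 with limma (-0.01) and on leaving out libraries (-0.11 to 0.28), and Nfkbid on leaving out libraries (-0.03 to 0.38). The cause was not tested.

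In that comparison the count of all genes called was 844 with limma and 831 with the length offset, against 1370, and 226 to 1748 on leaving out libraries. The count of IL-10 axis genes called was 1 with each, against 2, and 0 to 3 on leaving out libraries. The split of higher and lower calls moved there as well, at 539 and 831 in the values reported, 1111 and 879 with no count filter, 1015 and 1014 with DESeq2, 1100 and 717 in 1 fit over all 10 libraries, and 229 and 615 with limma. Leaving out libraries gave 4372 to 7089 genes in CD11b+ over CD11c+ cells, against 7392, and 3190 to 5707 in CD11b+CD11c+ over CD11c+ cells, against 6110.

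Whether the numbers in the subset titles pair libraries is not stated in the labels. Deviations of same-numbered libraries correlated at 0 for CD11b+CD11c+ and CD11b+, 0.33 for CD11b+CD11c+ and CD11c+, and -0.05 for CD11b+ and CD11c+ cells. Correlations over all genes cannot decide whether the libraries were paired. With the number as a replicate block, 9, 10 and 2 IL-10 axis genes were called in CD11b+ over CD11c+, CD11b+CD11c+ over CD11c+ and CD11b+CD11c+ over CD11b+ cells, and 7316, 6075 and 1427 of all genes. The calls gained among them were of Il10 (log2 fold change 3.28, adjusted p = 0.0143, and 3.23, adjusted p = 0.0169). Il10 was also called in both comparisons with no count filter and in 1 fit over all 10 libraries (adjusted p = 0.0258 to 0.0361). Of the pathway lists, those whose count moved by over 1.5 times with the block, all in CD11b+CD11c+ over CD11b+ cells, gave 1 call for genes induced by IL-10 against 2, 2 for genes repressed by it against 1, 2 for Il10 regulators against 1, and 2 for NF-κB partners against 0. No paired analysis was possible for the MHCII+ libraries because both splenic titles carry the same number. With 2 libraries a group, intervals are wide: a missed call does not show that levels were alike.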
